A study of Rattus norvegicus with 138 samples.

Results

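The 43 genes described here encode the machinery by which a nerve terminal stores and releases transmitter: vesicle membrane proteins, calcium sensors, SNARE proteins with their regulators, active zone scaffolds and Rab3 GTPases. They were listed by gene symbol, with earlier results of these data known. Among them are Sv2c, Cplx2, Rims1, Syn3, Ncs1 and Rph3a, which the study names from these same libraries. Calls of those genes are thus not independent of the list. Of the 43, 42 had a row among the 32883 genes of each expression table, and Sv2b was not analysed here. Cplx3 and Doc2b were too low to test, with medians over libraries of 1 to 5 counts in every region, which left 40 genes among the 13793 tested in the NTS, the 13408 in the CVLM and the 13411 in the RVLM.

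Transcripts were measured by RNA-seq in bilateral punches of the nucleus tractus solitarii (NTS), which receives baroreceptor afferents, the caudal ventrolateral medulla (CVLM), which inhibits the sympathetic premotor neurons, and the rostral ventrolateral medulla (RVLM), which holds those neurons. The 46 rats were all female: 18 normotensive Wistar-Kyoto (WKY/NHsd) rats and 28 spontaneously hypertensive rats (SHR/NHsd), an inbred strain that becomes hypertensive as it matures. At 8 wk there were 5 rats of each strain, at 10 wk 4 WKY rats and 5 SHRs, and at 12, 16 and 24 wk 3 WKY rats and 6 SHRs each. Each rat gave 1 library per region, with 5904570 to 17889406 counts per library and a median of 10143018.

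In the reserve pool synaptic vesicles are clustered and tethered to actin by synapsins. A vesicle is brought to the active zone by Rab3 and RIM proteins, and is primed by Munc13 and CAPS proteins. The vesicle SNARE (Vamp1 or Vamp2) then zips with syntaxin (Stx1a) and SNAP-25, complexins clamp the assembled bundle, and a synaptotagmin that binds calcium triggers fusion. NSF, held on the spent bundle by SNAP proteins such as the product of Napb, takes it apart for the next round. Many steps are served by paralogues that neurons use in different proportions. Synaptotagmin 2 and Vamp1 are known for fast synapses and for motor and hindbrain neurons, and synaptotagmin 1 and Vamp2 for most forebrain synapses.

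The paralogue pairs Syt1 with Syt2 and Vamp1 with Vamp2 differed most clearly between the regions, so the 250 bases before the annotated start of each of these 4 genes are shown (RefSeq, build GRCr8). Capitals mark the GC box (GGGCGG, either strand) and the core of the cyclic AMP response element (CRE; TGACGT, either strand), and the lines below run from 5′ to 3′ on the strand of the gene.

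Syt1, chr7:46244214-46244463, minus strand: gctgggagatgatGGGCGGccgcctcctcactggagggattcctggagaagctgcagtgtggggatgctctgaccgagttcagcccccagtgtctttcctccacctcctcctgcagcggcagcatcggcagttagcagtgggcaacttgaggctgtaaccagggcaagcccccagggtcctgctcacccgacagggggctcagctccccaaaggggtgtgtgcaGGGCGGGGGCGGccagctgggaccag

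Syt2, chr13:48736872-48737121, plus strand: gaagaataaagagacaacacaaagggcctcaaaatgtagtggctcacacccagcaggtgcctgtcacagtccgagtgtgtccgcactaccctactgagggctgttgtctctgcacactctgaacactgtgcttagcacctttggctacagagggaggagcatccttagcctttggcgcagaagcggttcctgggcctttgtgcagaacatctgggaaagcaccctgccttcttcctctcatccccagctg

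Vamp1, chr4:159698644-159698893, plus strand: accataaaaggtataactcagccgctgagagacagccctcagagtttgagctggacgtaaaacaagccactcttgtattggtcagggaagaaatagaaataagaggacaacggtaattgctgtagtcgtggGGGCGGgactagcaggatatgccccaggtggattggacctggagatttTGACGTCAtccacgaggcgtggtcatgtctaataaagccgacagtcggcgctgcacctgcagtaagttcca

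Vamp2, chr10:54292539-54292788, plus strand: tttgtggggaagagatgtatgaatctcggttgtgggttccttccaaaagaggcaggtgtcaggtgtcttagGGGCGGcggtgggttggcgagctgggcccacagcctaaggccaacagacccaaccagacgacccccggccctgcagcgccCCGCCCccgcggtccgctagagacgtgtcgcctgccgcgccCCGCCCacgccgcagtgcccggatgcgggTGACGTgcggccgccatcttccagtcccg

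The Syt1 window held 3 GC boxes, that of Vamp2 3 and that of Vamp1 1, and the window of Syt2 held none. Vamp2 held 1 CRE core and Vamp1 held 2, which are the same full palindrome (TGACGTCA) read on both strands. G and C made up 54.4% of the Syt2 window and 66% of that of Syt1, 68% of that of Vamp2 and 50.4% of that of Vamp1. Over the 35 members with a window in the table, 25 (71.4%) held a GC box, against 30.5% of all 33469 windows. The CRE core was present in 5 members (14.3% against 6.95% of all windows), namely Syn1, Vamp1, Vamp2, Rab3a and Erc1, and TATAAA on either strand in 0 members against 12.9% of all windows. Members were counted per gene, by any window of the gene. The share of all windows is per window and not limited to expressed genes, so the shares are in unlike units. A match describes these letters and is not a measured binding site.

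The release genes differed far more between the 3 nuclei of a rat than between the strains. Levels are given as CPM, counts scaled to a common library total, after scaling by the trimmed mean of M-values (TMM), so they compare a gene across libraries and not 1 gene with another. Differences are log2 fold changes with their standard errors from edgeR quasi-likelihood fits, in which regions were compared within rats and averaged over the 5 ages. A gene was called when its Benjamini-Hochberg adjusted p over all genes tested was under 0.05. Between NTS and RVLM, 31 of the 40 members were called in WKY rats (20 higher and 11 lower in the NTS), where 61.6% of all 13116 genes were called, and 34 in SHRs (22 higher and 12 lower), where 63.9% of all genes were. Of these, 19 were higher in the NTS in both strains and 11 lower in both. With so many genes passing, the sizes and the opposite directions of related genes describe the pattern better than the counts. In tissue punches fewer cells of a type and less RNA per cell cannot be told apart.

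Syt5, a vesicular synaptotagmin, had the highest ratio of NTS to RVLM. Over the 46 rats its level ran from 85.3 to 205 CPM in the NTS (median 155), from 38.4 to 72.5 in the CVLM (median 52.2) and from 20.9 to 69.5 in the RVLM (median 34.7). The NTS values lay above all those of the other regions, and the log2 difference from the RVLM was 2.19 ± 0.08 in WKY rats (adjusted p = 4.29e-37) and 1.86 ± 0.07 in SHRs (adjusted p = 3.46e-40). Stx1a, the plasma membrane syntaxin, had medians of 56.5 CPM (NTS), 26.7 (CVLM) and 16.0 (RVLM). In every rat of both strains its NTS level exceeded its RVLM level, by 2.08 ± 0.12 and 1.51 ± 0.09 in log2 terms. Cadps2, a priming factor of the CAPS family, followed the same order, with medians of 30.3, 19 and 9.77 CPM and log2 differences between NTS and RVLM of 1.85 ± 0.10 in WKY rats. Rims3, a short RIM protein without the domain that binds Rab3, did as well, at 14.9, 8.65 and 4.97 CPM.

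**Figure D1:**
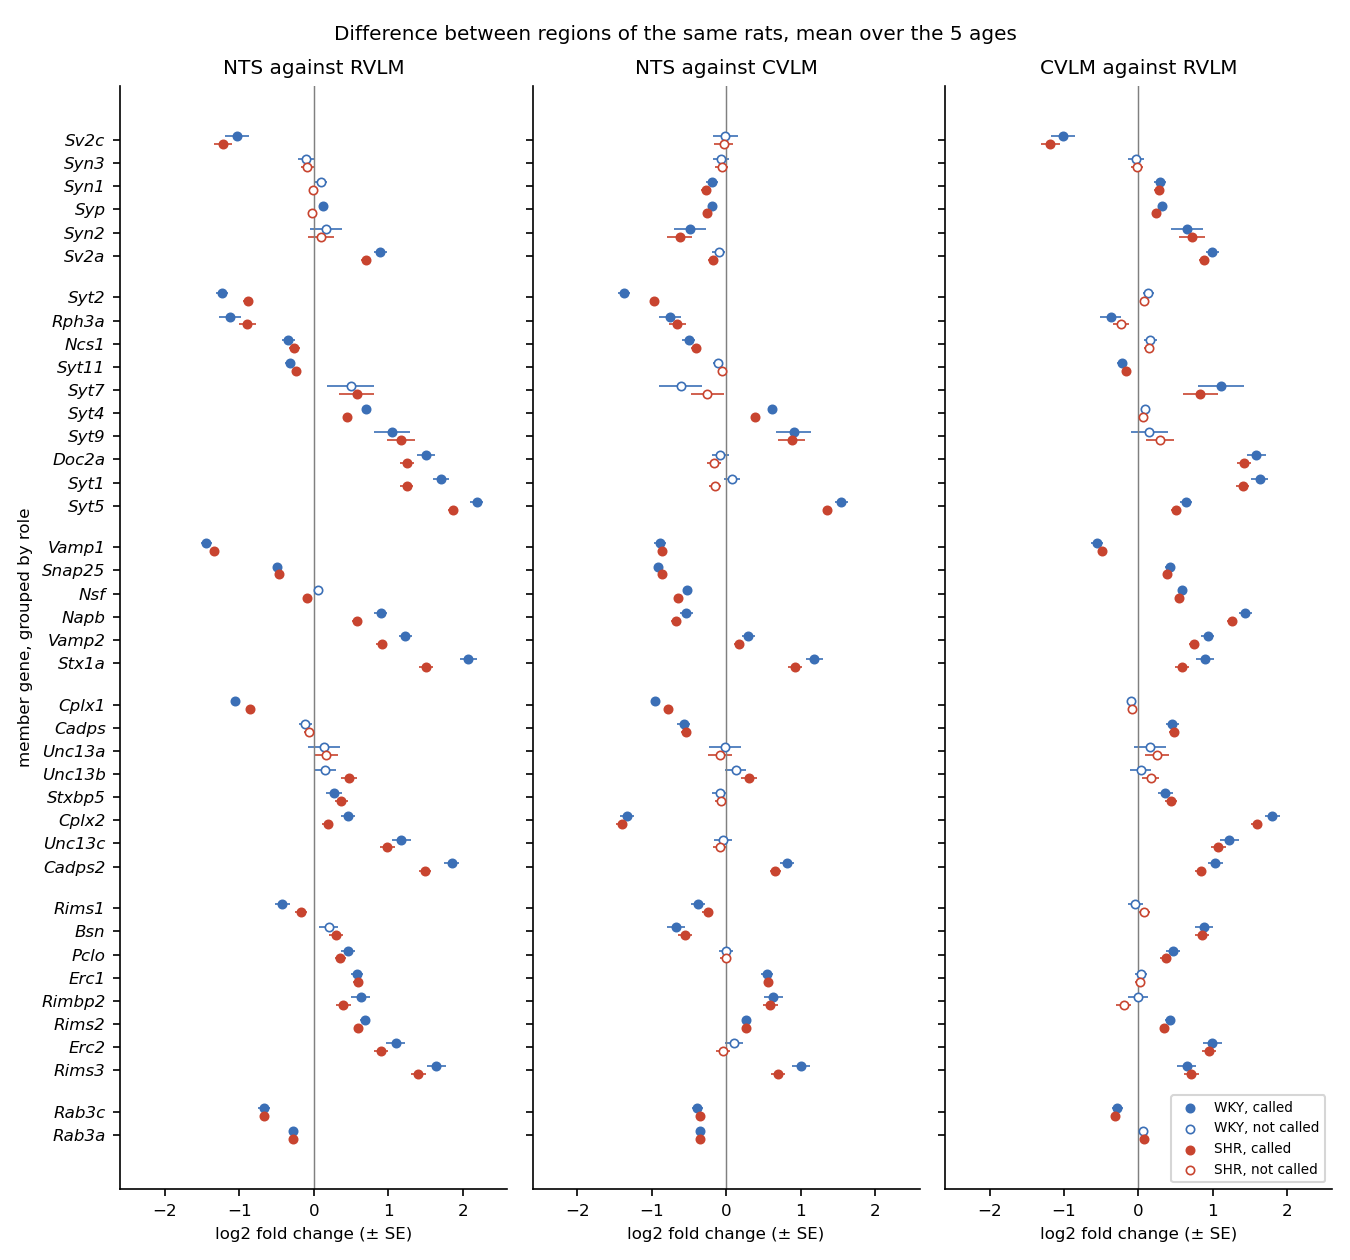
Each point is the log2 fold change of 1 member between 2 regions of the same rats (horizontal axis, ± SE), for WKY rats (blue) and SHRs (red). Filled points passed an adjusted p of 0.05. Members are grouped by role, from vesicle proteins at the top through calcium sensors, SNAREs, SNARE regulators and active zone proteins to Rab3 GTPases at the bottom. Syt5, Stx1a and Cadps2 lie farthest to the right for NTS against RVLM and Vamp1 farthest to the left, and the 2 strains lie close to each other.

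The calcium sensors for fast release went in opposite directions. Syt1 had a median of 329 CPM in the NTS (217 to 454) and 358 in the CVLM (181 to 477) but 112 in the RVLM (48 to 272). Its NTS level exceeded its RVLM level in all 18 WKY rats and all 28 SHRs, by 1.71 ± 0.11 (adjusted p = 6.72e-24) and 1.25 ± 0.08 (adjusted p = 1.39e-22). Syt2 had a median of 34.1 CPM in the NTS (16.2 to 56.7), 71.9 in the CVLM (53.3 to 96.2) and 68.9 in the RVLM (50.1 to 112). It was lower in the NTS than in the RVLM of every rat, by -1.24 ± 0.08 in WKY rats (adjusted p = 5.11e-24) and -0.88 ± 0.06 in SHRs (adjusted p = 4.18e-22). Thus the RVLM stood apart from the other regions in Syt1 and the NTS in Syt2. Between NTS and CVLM Syt1 did not pass the test (0.08 ± 0.10 in WKY rats and -0.15 ± 0.08 in SHRs), nor did Syt2 between CVLM and RVLM (0.13 ± 0.08 and 0.08 ± 0.06).

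The vesicle SNAREs were opposed in the same manner. Vamp1 had a median of 883 CPM in the NTS (466 to 1110), 1518 in the CVLM (1030 to 2142) and 2170 in the RVLM (1489 to 3132), and the values of NTS and RVLM did not overlap. Its log2 difference between NTS and RVLM was -1.44 ± 0.08 in WKY rats (adjusted p = 3.98e-28) and -1.34 ± 0.06 in SHRs (adjusted p = 7.35e-33). Vamp2 fell along the same axis, with medians of 373 CPM in the NTS (194 to 525), 317 in the CVLM (160 to 462) and 179 in the RVLM (75.1 to 265). All 46 rats had more of it in the NTS than in the RVLM, by 1.23 ± 0.09 and 0.91 ± 0.07.

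**Figure D2:**
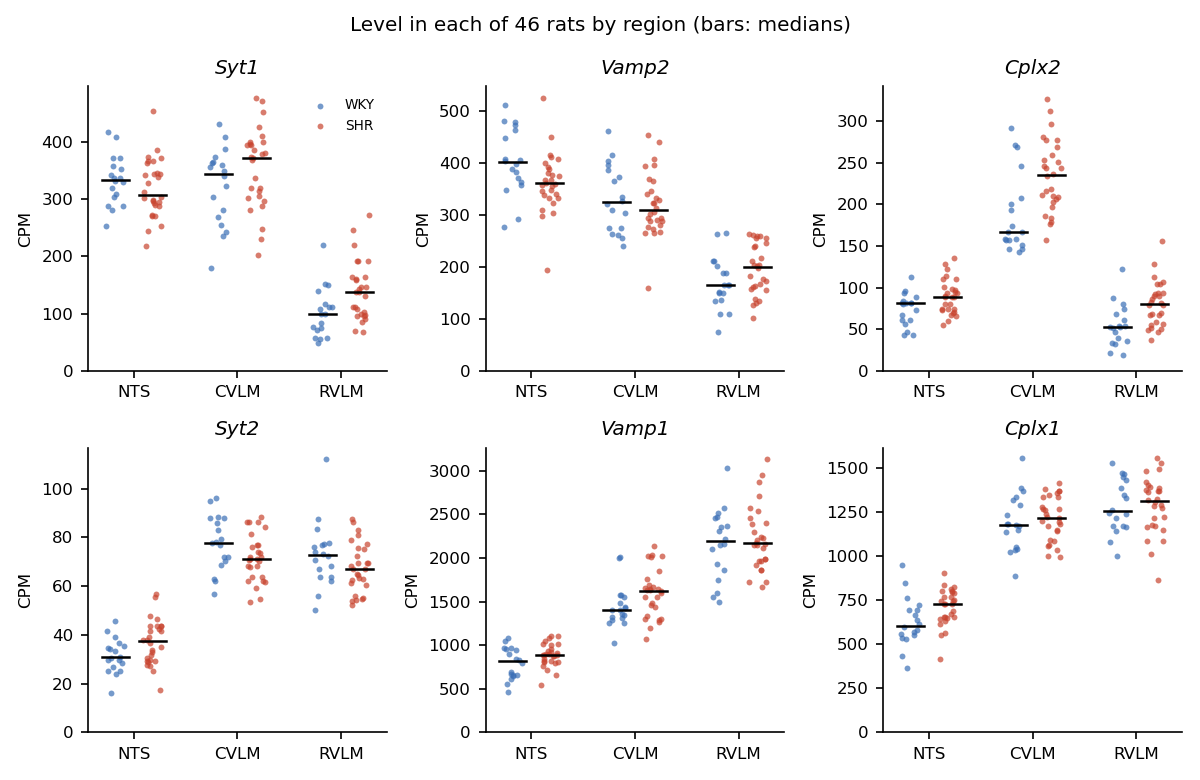
Each point is the level of 1 gene in 1 rat (CPM, axis from 0) in NTS, CVLM and RVLM, with WKY rats in blue and SHRs in red, and the bars are medians. Syt1 and Vamp2 (top) are lowest in the RVLM, Syt2 and Vamp1 (bottom) are lowest in the NTS, Cplx2 is highest in the CVLM, and Cplx1 is lowest in the NTS.

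The complexins gave a further contrast. Cplx2 was the member that marked the CVLM most: its median there was 210 CPM (143 to 327), against 81.6 in the NTS (43.7 to 135) and 67.7 in the RVLM (19.7 to 156), and it was higher in the CVLM than in either other region of every rat. The log2 difference between CVLM and RVLM was 1.80 ± 0.10 in WKY rats (adjusted p = 5.85e-28) and 1.59 ± 0.07 in SHRs (adjusted p = 1.22e-31). Cplx1 instead was low in the NTS, at a median of 679 CPM (364 to 950) against 1196 in the CVLM (885 to 1556) and 1299 in the RVLM (863 to 1556). It did not pass between CVLM and RVLM in either strain (adjusted p = 0.0972 and 0.0729).

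Sv2c, the vesicle glycoprotein that is restricted to fewer neurons than its relative Sv2a, was the vesicle gene highest in the RVLM. Its median there was 13.8 CPM (6.41 to 35.6), against 6.18 in the NTS and 6.75 in the CVLM, and it was lower in the CVLM than in the RVLM by -1.02 ± 0.16 in WKY rats and -1.18 ± 0.12 in SHRs (adjusted p = 2.31e-07 and 2.28e-13). Sv2a went the other way, with a median of 198 CPM in the RVLM, 347 in the NTS and 395 in the CVLM. Rph3a, a Rab3 effector, was lowest in the NTS (median 2.53 CPM, 4.46 in the CVLM and 5.55 in the RVLM), and so were both Rab3 genes, Rab3c by -0.67 ± 0.07 against the RVLM in WKY rats and Rab3a by -0.28 ± 0.04. Snap25 was highest in the CVLM, with medians of 3251 CPM there, 2462 in the RVLM and 1907 in the NTS.

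Between NTS and CVLM, 27 members were called in WKY rats (10 higher and 17 lower in the NTS; 51.8% of all genes were called) and 29 in SHRs (11 and 18; 54.9% of all genes). The highest were Syt5 (1.55 ± 0.08 in WKY rats) and Stx1a (1.18 ± 0.11), followed by Rims3 in WKY rats (1.00 ± 0.12) and by Stx1a and Syt9 in SHRs (0.93 ± 0.09 and 0.88 ± 0.18). The lowest in WKY rats were Syt2 (-1.37 ± 0.08), Cplx2 (-1.33 ± 0.09) and Cplx1 (-0.96 ± 0.05). In SHRs they were Cplx2 (-1.40 ± 0.07), Syt2 (-0.96 ± 0.06), Snap25 (-0.86 ± 0.05) and, at nearly the same value, Vamp1 (-0.86 ± 0.06). Between CVLM and RVLM, 28 members were called in each strain, 23 higher and 5 lower in the CVLM of WKY rats (38.9% of all genes were called) and 24 and 4 in SHRs (44.7%). After Cplx2, the highest in the CVLM were Syt1 (1.63 ± 0.11 in WKY rats) and Doc2a, a C2 domain protein of spontaneous release (1.58 ± 0.13), and then Napb (1.43 ± 0.09). The median of the 40 members between CVLM and RVLM was 0.39 in WKY rats and 0.35 in SHRs on the log2 scale, and the median of all 13116 genes was 0.00 and 0.01.

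By role, the active zone scaffolds (Rims1, Rims2, Rims3, Rimbp2, Bsn, Pclo, Erc1 and Erc2) mostly favoured the NTS over the RVLM. Of the 8, 6 were called higher and 1 lower in WKY rats, and 7 and 1 in SHRs. In either direction 61.6% of all genes were called in WKY rats and 63.9% in SHRs. The median log2 difference of the 8 was 0.60 and 0.49, and that of all genes -0.0055 and 0.010. Rims1, the large RIM that organises the release site, was the exception (-0.42 ± 0.10 and -0.17 ± 0.08). The 10 tested calcium sensors and C2 domain proteins were split, with 5 higher and 4 lower in WKY rats and 6 and 4 in SHRs. Among the 40 other presynaptic genes listed for comparison, 37 were tested, and 17 were higher and 11 lower in the NTS than in the RVLM of WKY rats, 16 and 12 in SHRs. That split is near the one over the members, and no test set the lists against each other.

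The levels of cell type markers in the punches differed between regions as well. The summed level of 10 neuronal markers had a median of 7406 CPM in the NTS of WKY rats (5300.2 to 9446), 10508 in the CVLM (8110 to 11761) and 28438 in the RVLM (14914 to 36591). The gap between NTS and RVLM lay mostly in the neurofilament genes, with medians over 46 rats of 2970 and 13552 CPM for Nefl, 741 and 4981 for Nefm and 151 and 1065 for Nefh. Tubb3 (803 and 2526 CPM), Stmn2 (635 and 1396) and Uchl1 (1329 and 1959) were also lower in the NTS. The gap was smaller for Rbfox3 (25.1 and 30.7 CPM), Map2 (402 and 508) and Eno2 (464 and 537), and the reverse for Elavl4 (111 and 83.6). Of the 10 markers 9 were called lower in the NTS than in the RVLM in each strain and 1 higher, and cholinergic markers (Chat, Slc5a7 and Slc18a3) were all lower, with medians of their sum of 349 CPM (NTS), 108 (CVLM) and 1309 (RVLM) in WKY rats. All 8 oligodendrocyte markers were lower in the NTS than in the RVLM. The noradrenergic and adrenergic markers (Th, Dbh, Slc6a2 and Pnmt) were present in every region. Their sum had medians of 244, 279 and 75.1 CPM in the NTS, CVLM and RVLM of WKY rats. Over all rats the medians of Th, Dbh and Slc6a2 were each lowest in the RVLM. Pnmt, the adrenergic marker, was instead lowest in the NTS (3.66 CPM, 42.1 in the CVLM and 19.7 in the RVLM). The part of these marker differences in the region results was not tested.

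Within a region, the levels of some members moved together from rat to rat. After the mean of each strain and age was removed from log2(CPM + 0.5), Syt1 and Vamp2 correlated over the 46 RVLM libraries (Pearson r = 0.73, Spearman rho = 0.75, permutation p within groups 1e-05 for each, the smallest that 100000 resamples can give, adjusted p = 0.00015 over 15 relations examined). Without the 2 rats farthest from the median of Syt1 r was 0.70, and it was 0.62 over the 32 libraries whose names end in 1 and 0.91 over the 14 whose names end in 2. In the NTS and CVLM the same pair gave r = 0.13 and 0.02 (Spearman rho = 0.04 and 0.05, permutation p for r 0.52 and 0.88, adjusted p = 0.65 and 0.92). In the NTS r was -0.24 over the libraries named 1 and 0.75 over those named 2. Vamp1 and Vamp2 were negatively related in the RVLM (r = -0.49, rho = -0.52, permutation p = 0.0078 and 0.0026, adjusted p = 0.039 and 0.02), but r was -0.78 in the libraries named 1 and 0.06 in those named 2, so this relation did not hold within both. Syt2 and Vamp1 were positively related in the CVLM (r = 0.46, rho = 0.46, permutation p = 0.0066 and 0.004, adjusted p = 0.039 and 0.02) and stood at 0.48 and 0.42 within the 2 kinds of library. That pair gave r = 0.35 in the NTS (rho = 0.43, permutation p = 0.019 and 0.0065, adjusted p = 0.057 and 0.024) and r = 0.23 in the RVLM (rho = 0.27, permutation p = 0.23 and 0.12, adjusted p = 0.34 and 0.2). Cplx1 and Cplx2 were also related in the CVLM (r = 0.43, rho = 0.42, permutation p = 0.011 and 0.0095, adjusted p = 0.04 and 0.028), with r = 0.40 without 2 rats and 0.43 and 0.33 within the 2 kinds of library. The pairs were chosen after their values were seen.

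Of the strain differences, those that held most widely were in Nsf, the ATPase that disassembles spent SNARE bundles, and in Rims1. Both were higher in SHRs than in WKY rats in all 3 regions when averaged over the ages. The averaged comparison called 5 members (NTS), 3 (CVLM) and 6 (RVLM), against 11.2%, 12.3% and 10.8% of all genes, so the members as a whole were called about as often as other genes (12.5%, 7.5% and 15%).

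Nsf ran from 711 to 1037 CPM in the NTS of the 18 WKY rats (median 813) and from 765 to 1119 in the 28 SHRs (median 956). In the CVLM it ran from 964 to 1600 (median 1152) and from 1136 to 1851 (median 1429), and in the RVLM from 552 to 938 (median 796) and from 786 to 1239 (median 1020). In the RVLM 21 of the 28 SHRs lay above every WKY rat and 27 above the WKY median. The log2 differences were 0.21 ± 0.05 in the NTS (adjusted p = 0.000965), 0.30 ± 0.06 in the CVLM (adjusted p = 9.29e-05) and 0.35 ± 0.05 in the RVLM (adjusted p = 2.32e-07), and the difference was positive at all 5 ages in each region. These 3 calls held in every alternative and without any 1 rat. The effect was not shown to differ between regions (NTS minus RVLM -0.15 ± 0.05, adjusted p = 0.14).

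Rims1 had a median of 8.51 CPM in the NTS of WKY rats (6.74 to 16.8) and 12.1 in SHRs (8.56 to 23.9), and all 28 SHRs lay above the WKY median. In the CVLM the medians were 12 (7.39 to 17.4) and 15.7 (8.25 to 19.8), and in the RVLM 11.7 (6.69 to 25.9) and 15.4 (7.55 to 20.7). The log2 differences were 0.56 ± 0.11 (adjusted p = 0.00014), 0.40 ± 0.09 (adjusted p = 0.00103) and 0.30 ± 0.10 (adjusted p = 0.0427). The NTS and CVLM calls held throughout, and that in the RVLM was lost in 27 of the 53 alternative fits, the replicate block among them (adjusted p = 0.29).

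**Figure D3:**
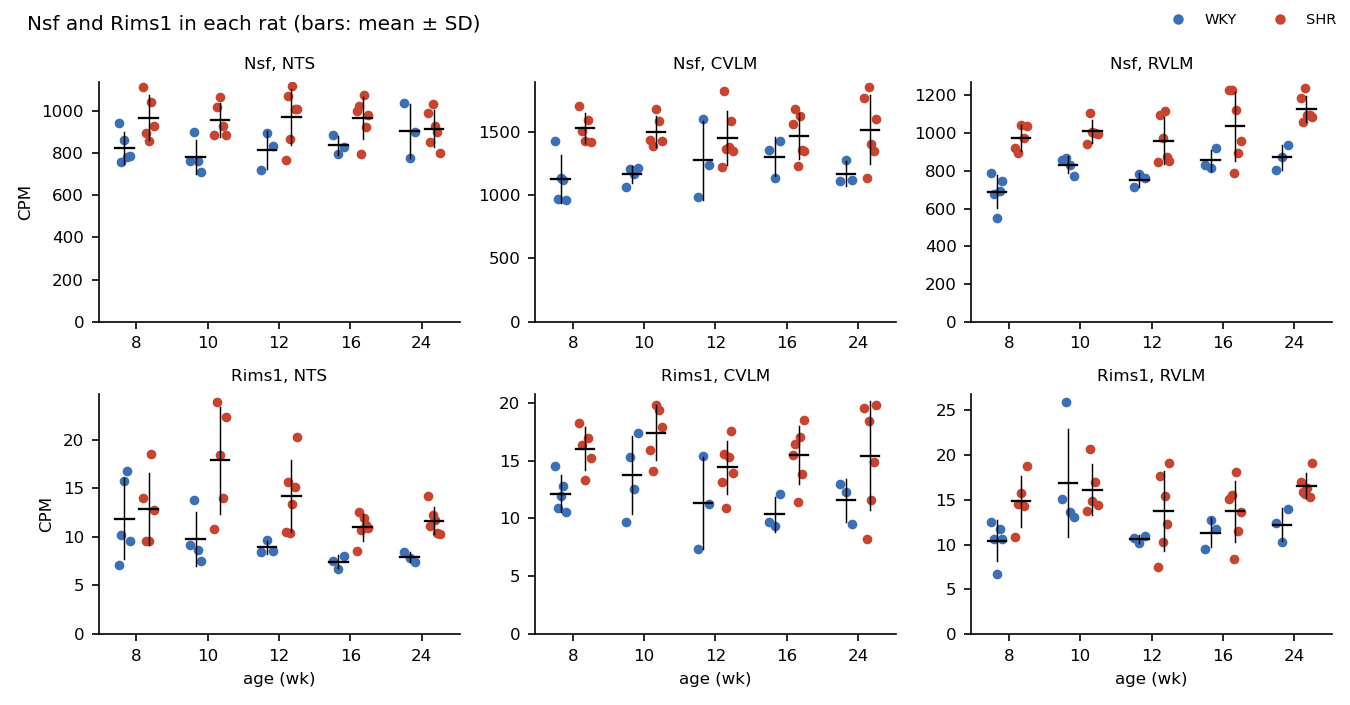
Each point is 1 rat (CPM, axis from 0) by age in weeks, with WKY rats in blue, SHRs in red and bars for the mean ± SD of each group. In the RVLM every SHR has more Nsf than every WKY rat at 8, 10, 12 and 24 wk, and 4 of 6 SHRs do at 16 wk. For Rims1 the strains overlap at every age in the CVLM and at all but 24 wk in the RVLM. In the NTS every SHR has more Rims1 than every WKY rat at 12, 16 and 24 wk.

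The other members called in the averaged comparison differed by region. In the NTS 3 were lower in SHRs, namely Stx1a (-0.26 ± 0.08, adjusted p = 0.0298), Syt5 (-0.26 ± 0.07, adjusted p = 0.00751) and Syt4, a synaptotagmin of dense core vesicles (-0.20 ± 0.06, adjusted p = 0.00904). In the RVLM Cplx2 (0.52 ± 0.14, adjusted p = 0.00904), Sv2c (0.54 ± 0.14, adjusted p = 0.00612), Napb (0.38 ± 0.12, adjusted p = 0.0279) and Rims2 (0.19 ± 0.06, adjusted p = 0.0364) were higher in SHRs. Cplx2 was also higher in the CVLM (0.29 ± 0.08, adjusted p = 0.00817), with a median of 167 CPM in WKY rats (143 to 292) and 235 in SHRs (158 to 327). Cplx2 and Napb in the RVLM had medians of 52.4 CPM (19.7 to 122) and 98.6 (34.1 to 166) in WKY rats and of 80.7 (37 to 156) and 125 (71.4 to 201) in SHRs, so the strains overlapped widely. With the replicate number as a block the RVLM calls fell from 6 to 2, and without SHR 2 of 10 wk or WKY rat 1 of 24 wk they were 3. The CVLM calls rose to 6 without WKY rat 2 of 12 wk.

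The strain effect itself differed between regions for 3 members, where 1.75% of all genes were called for NTS against RVLM and 0.351% for NTS against CVLM. Stx1a was relatively lower in SHRs in the NTS than in the RVLM (-0.57 ± 0.15, adjusted p = 0.0183), with medians of 62.2 CPM in WKY rats and 52.8 in SHRs in the NTS and of 13.6 and 17.7 in the RVLM. Syt4 went the same way (-0.26 ± 0.06, adjusted p = 0.00934; medians 465 and 411 CPM in the NTS, 287 and 296 in the RVLM). Syt2 went the opposite way, against the RVLM (0.35 ± 0.10, adjusted p = 0.0423) and against the CVLM (0.41 ± 0.10, adjusted p = 0.0379). Its medians in WKY rats and SHRs were 30.8 and 37.3 CPM in the NTS, 77.8 and 71.2 in the CVLM and 72.7 and 67.2 in the RVLM. Within no region was Syt2 itself called for strain. Leaving out all rats of 1 replicate number at a time, which removes up to 10 of the 46, the differences between NTS and RVLM kept their direction, at 0.30 to 0.42 for Syt2, -0.29 to -0.21 for Syt4 and -0.64 to -0.48 for Stx1a. The number of members called went to 0 without number 2 or number 3 and to 7 without number 4. The Syt2 difference between NTS and CVLM stayed at 0.38 to 0.49 and, of these 6 fits, passed in the one without number 6. At single ages 0 members were called by edgeR for a difference in strain effect between regions. At an unadjusted p of 0.05, 18 of the 40 members passed for NTS against RVLM at 8 wk, beside 2749 of all 13116 genes. At 10 wk 14 members and 1819 genes did. From 8 to 24 wk the shares of all genes called were 0.557%, 0.427%, 0.183%, 0.0152% and 0.0305% for NTS against RVLM, 0.0457%, 0.0381%, 0.0457%, 0.00762% and 0.0457% for NTS against CVLM, and 0.061% and then 0% for CVLM against RVLM, whose averaged effect called 0 members and 0.282% of all genes.

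At single ages the strains differed in few members, and at most in the RVLM at 8 wk. There 6 of the 40 were called, all higher in SHRs, where 9.78% of all genes were called, and 34 of the 40 had a positive log2 difference with a median of 0.24 (median of all genes -0.02). Nsf was 786, 675, 552, 691 and 743 CPM in the 5 WKY rats and 921, 895, 1041, 973 and 1038 in the 5 SHRs, without overlap (0.48 ± 0.10, adjusted p = 0.000969). Cplx2 was 53.4, 46.6, 22.1, 40 and 19.7 CPM against 56.4, 79.8, 69.1, 105 and 67.2, again without overlap (1.04 ± 0.29, adjusted p = 0.0198). Rph3a was 4.6, 4.47, 1.77, 2.36 and 3.35 CPM against 4.48, 7.2, 6.62, 6.75 and 6.99, so 4 of 5 SHRs lay above every WKY rat (0.93 ± 0.23, adjusted p = 0.0084).

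The active zone genes Rims2 and Erc1 and the synapsin Syn3 made up the rest. Rims2 was 23.4, 17.8, 16, 21 and 22.2 CPM in WKY rats and 21.7, 29.4, 31, 30 and 29.6 in SHRs (0.48 ± 0.13, adjusted p = 0.0165). Erc1 was 15.4, 10.1, 10.1, 10.1 and 11.4 CPM against 13, 18.1, 15.5, 19.4 and 19.7 (0.57 ± 0.18, adjusted p = 0.0334). In each of these the first SHR lay among the WKY rats. Syn3 was 6.06, 3.4, 2.87, 3.43 and 3.6 CPM against 3.75, 5.64, 7.41, 7.18 and 7.38 (0.68 ± 0.21, adjusted p = 0.0361). Sv2c was 12.9, 8.4, 6.41, 9.71 and 11.6 CPM against 13.1, 15.1, 21.4, 19.1 and 20.1, without overlap. It did not pass at this age (0.83 ± 0.28, adjusted p = 0.054), nor did Ncs1, a neuronal calcium sensor (0.01 ± 0.20).

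Library names in the tables end in 1 or 2, and what the number stands for is not given in the sources used here. It was 2 for 3 of the 5 WKY rats at 8 wk (rats 3, 4 and 5), for no SHR at that age, for all rats at 10 wk and for 1 SHR each at 12 and 24 wk. With the number as a term in the fit 2 members stayed called in the RVLM at 8 wk, Nsf (0.40 ± 0.11, adjusted p = 0.0283) and Rims2 (0.55 ± 0.14, adjusted p = 0.0214), and without the libraries named 2 outside 10 wk, which leaves 2 WKY rats at 8 wk, 0 did. Leaving out 1 rat moved the count between 3 (without SHR 4 or WKY rat 3) and 11 (without WKY rat 1). The RVLM library of WKY rat 3 had the lowest TMM factor of all libraries, 0.773. Its Syn1 was 80.5 CPM, against 249 to 336 in the other WKY rats at 8 wk, and its Syp 383 against 487 to 579. Of the called members, Nsf, Rph3a, Syn3 and Rims2 had their lowest WKY value at this age in it, and Cplx2 was lowest in rat 5. Why this library differs was not tested. The summed neuronal markers ran from 28324.5 to 36591 CPM in the 5 WKY rats and from 23764 to 35200.1 in the 5 SHRs, with 0 of 10 markers called higher and 1 lower, and with neuronal and oligodendrocyte scores as covariates the count was 7.

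In the NTS at 10 wk 3 members were called, all higher in SHRs, where 4.44% of all genes were called. Sv2c was 2.81, 3.27, 4.13 and 3.17 CPM in the 4 WKY rats and 5, 20.5, 18.8, 3.57 and 7.35 in the 5 SHRs (1.76 ± 0.44, adjusted p = 0.0118). Rims1 was 9.13, 13.8, 8.63 and 7.54 CPM against 10.8, 23.9, 18.4, 14.1 and 22.3 (0.90 ± 0.23, adjusted p = 0.0122). Syn3 was 3.37, 4.32, 2.88 and 3.07 CPM against 3.38, 7.54, 6.55, 6.23 and 5.27 (0.79 ± 0.20, adjusted p = 0.0139). For each gene 4 of 5 SHRs lay above every WKY rat, and rats 2 and 3 were high in all 3 genes. Of the 40 members 32 had a positive difference, with a median of 0.35 on the log2 scale (0.02 over all genes).

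All 9 rats at this age had libraries named 2. Leaving out SHR 2 left 0 calls, and leaving out WKY rat 1, 3 or 4 left 1. Without SHR 1 there were 9, and without SHR 4 or WKY rat 2 there were 6. Ncs1 and Cplx2 were highest in SHRs 2, 3 and 5 but did not pass (0.78 ± 0.25 and 0.64 ± 0.21, adjusted p = 0.0705 and 0.0703). Rph3a did not pass either. It ran from 0.99 to 1.26 CPM in the WKY rats and from 1.08 to 2.50 in the SHRs, with 4 of 5 SHRs above every WKY rat. None of the 40 members had a strain effect at 1 age that differed from its mean over the other ages by edgeR at an adjusted p of 0.05 in any region, and in the NTS at 10 wk 9 did at an unadjusted p of 0.05, of 1339 genes in all. The adjusted test called 0.0508% of all genes in the NTS (10 wk), 0.656% and 0.0373% in the CVLM (8 and 24 wk) and 0.0149%, 0.00746% and 0.00746% in the RVLM (10, 12 and 24 wk).

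**Figure D4:**
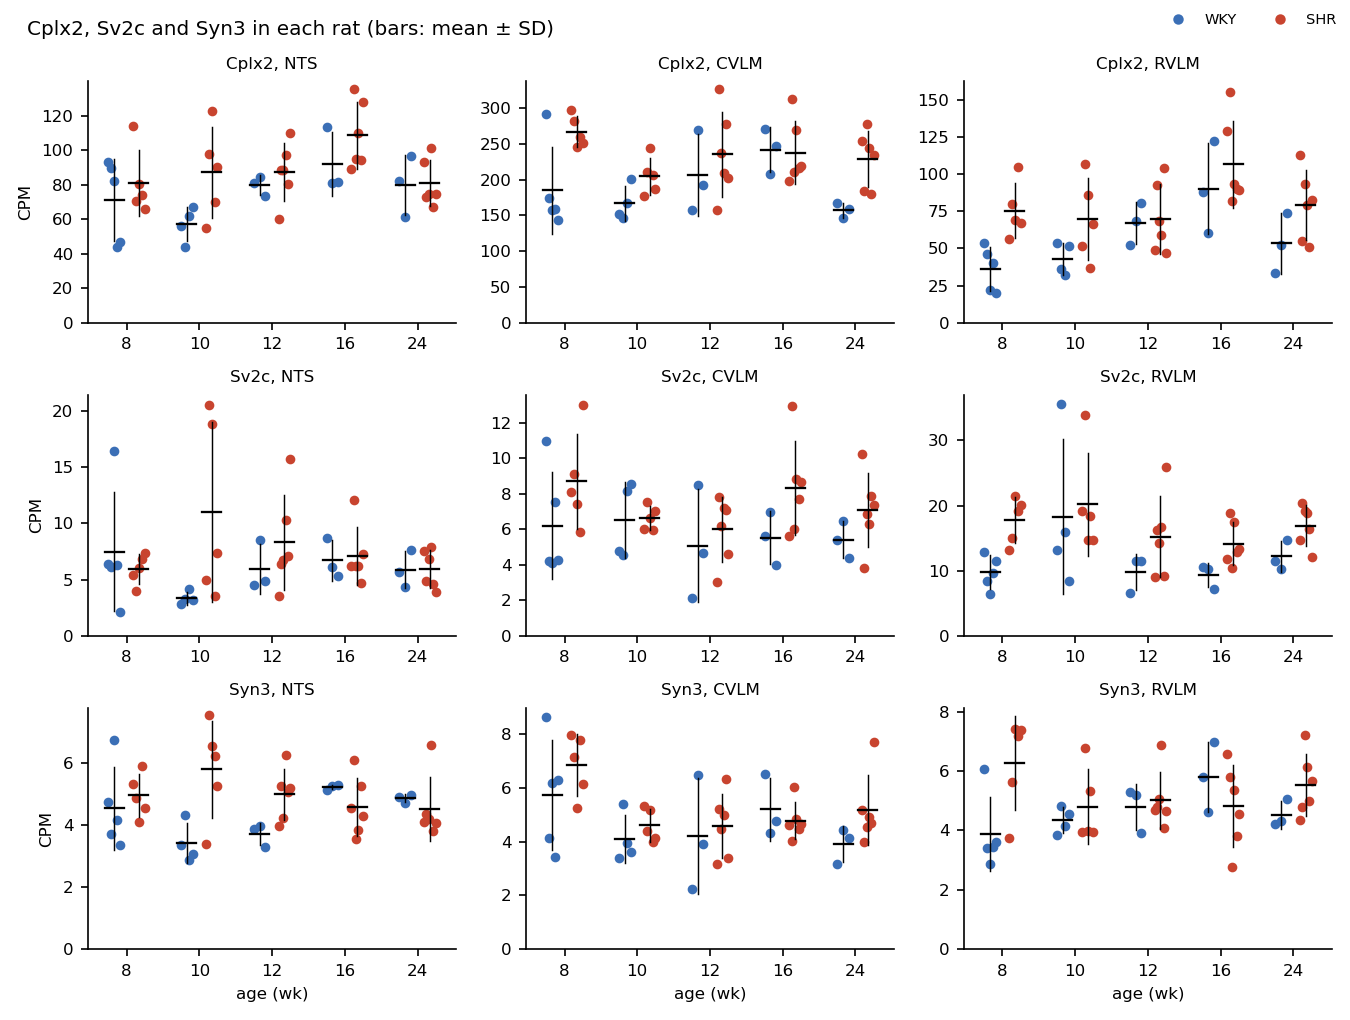
Each point is 1 rat (CPM, axis from 0) by age in weeks, with WKY rats in blue, SHRs in red and bars for the mean ± SD. The SHRs at 10 wk in the NTS spread from 3.57 to 20.5 CPM for Sv2c, and at 8 wk in the RVLM every SHR has more Cplx2 than every WKY rat.

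The remaining strain comparisons at single ages were sparse. In the NTS at 8 wk 2 members were called (5.79% of all genes). Vamp2 was 363, 472, 447, 407 and 388 CPM in WKY rats and 323, 332, 194, 360 and 297 in SHRs, so every SHR lay below every WKY rat (-0.48 ± 0.13, adjusted p = 0.0215). Rab3c was 15.8, 12.2, 9.14, 9.82 and 10.5 CPM against 16.7, 18.7, 18.5, 15.8 and 16.4 (0.57 ± 0.17, adjusted p = 0.0426). In the CVLM at 8 wk 2 were called (7.64% of all genes), Nsf at 1430, 968, 1138, 1121 and 964 CPM against 1701, 1503, 1425, 1590 and 1418 (0.43 ± 0.11, adjusted p = 0.0136) and Cplx2 at 292, 174, 157, 159 and 143 CPM against 297, 281, 246, 260 and 252 (0.52 ± 0.16, adjusted p = 0.0407). These 4 calls were lost with the name number as a term. Without WKY rat 1 the counts were 6 (NTS) and 4 (CVLM). Without WKY rat 3 or SHR 3 the NTS count was 0, without WKY rat 5 the CVLM count was 0, and most other single rats left 1. In the CVLM 1 library of each strain (rat 5) is titled 8 wk but labelled 10 weeks, and without these 2 libraries neither Nsf nor Cplx2 passed (adjusted p = 0.0558 and 0.137). At 24 wk Nsf alone was called in the RVLM (2.24% of all genes), at 806, 872 and 938 CPM in WKY rats and a range of 1059.6 to 1239 in the 6 SHRs (0.39 ± 0.11, adjusted p = 0.0457), and that call was lost without any 1 of the 9 rats. In the other single ages 0 of 40 were called by edgeR, with 1 to 6 members and 742 to 3029 of all genes at an unadjusted p of 0.05. The shares of all genes called there were 3.1%, 1.73% and 2.46% in the NTS (12, 16 and 24 wk), 3.18%, 2.62%, 2.27% and 7.13% in the CVLM (10, 12, 16 and 24 wk), and 2.3%, 1.7% and 1.65% in the RVLM (10, 12 and 16 wk).

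Over age, most calls were for 10 against 8 wk in SHRs, at about the share of all genes. There 11 members were called in the NTS of SHRs, 10 in the CVLM and 8 in the RVLM (27.5%, 25% and 20% of the members). Of all genes 27.1%, 25.2% and 22% were called. In WKY rats 0 members were called in any region (0.0218%, 0.0447% and 0.0149% of all genes). At an unadjusted p of 0.05, 7, 6 and 12 members passed in WKY rats, beside 1893 of 13793, 1103 of 13408 and 2809 of 13411 genes. The difference in SHRs coincides with the name number, which is 1 for all SHRs at 8 wk and 2 for all at 10 wk. Age and number therefore cannot be told apart in SHRs. With the number as a term 0 members were called. Without SHR 3 of 8 wk the counts were 7 (NTS) and 5 (RVLM), without SHR 2 of 10 wk 7 (NTS), and without SHR 1 of 8 wk 5 (RVLM).

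The values of a few genes are given. Syn2, a synapsin, was 17.9, 28.9, 21.1, 22.7 and 26.3 CPM in the NTS of SHRs at 8 wk and 43.9, 147, 92.9, 116 and 120 at 10 wk (2.19 ± 0.56, adjusted p = 0.00533). WKY rats at 8 wk already spanned 23.1 to 123 CPM, with 123 in a library named 1. Stxbp5 (tomosyn, which competes with the vesicle SNARE) went from 24, 24.5, 23.7, 27.6 and 28.2 to 28, 83.9, 54.9, 51.8 and 75.3 CPM in the NTS (1.24 ± 0.32), and rose in the CVLM (0.86 ± 0.20) and RVLM (1.06 ± 0.26) as well. Cadps2 rose in all 3 regions (0.95 ± 0.25, 0.92 ± 0.22 and 0.88 ± 0.27) and so did Ncs1 (1.05 ± 0.24, 0.51 ± 0.17 and 0.54 ± 0.20). Rab3c fell in all 3, from 16.7, 18.7, 18.5, 15.8 and 16.4 to 13.7, 8.91, 7.74, 7.42 and 7.74 CPM in the NTS (-0.88 ± 0.17). Rph3a fell in the CVLM (-0.84 ± 0.27) and RVLM (-1.15 ± 0.23), and Snap25 rose in both (0.77 ± 0.12 and 0.69 ± 0.13).

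**Figure D5:**
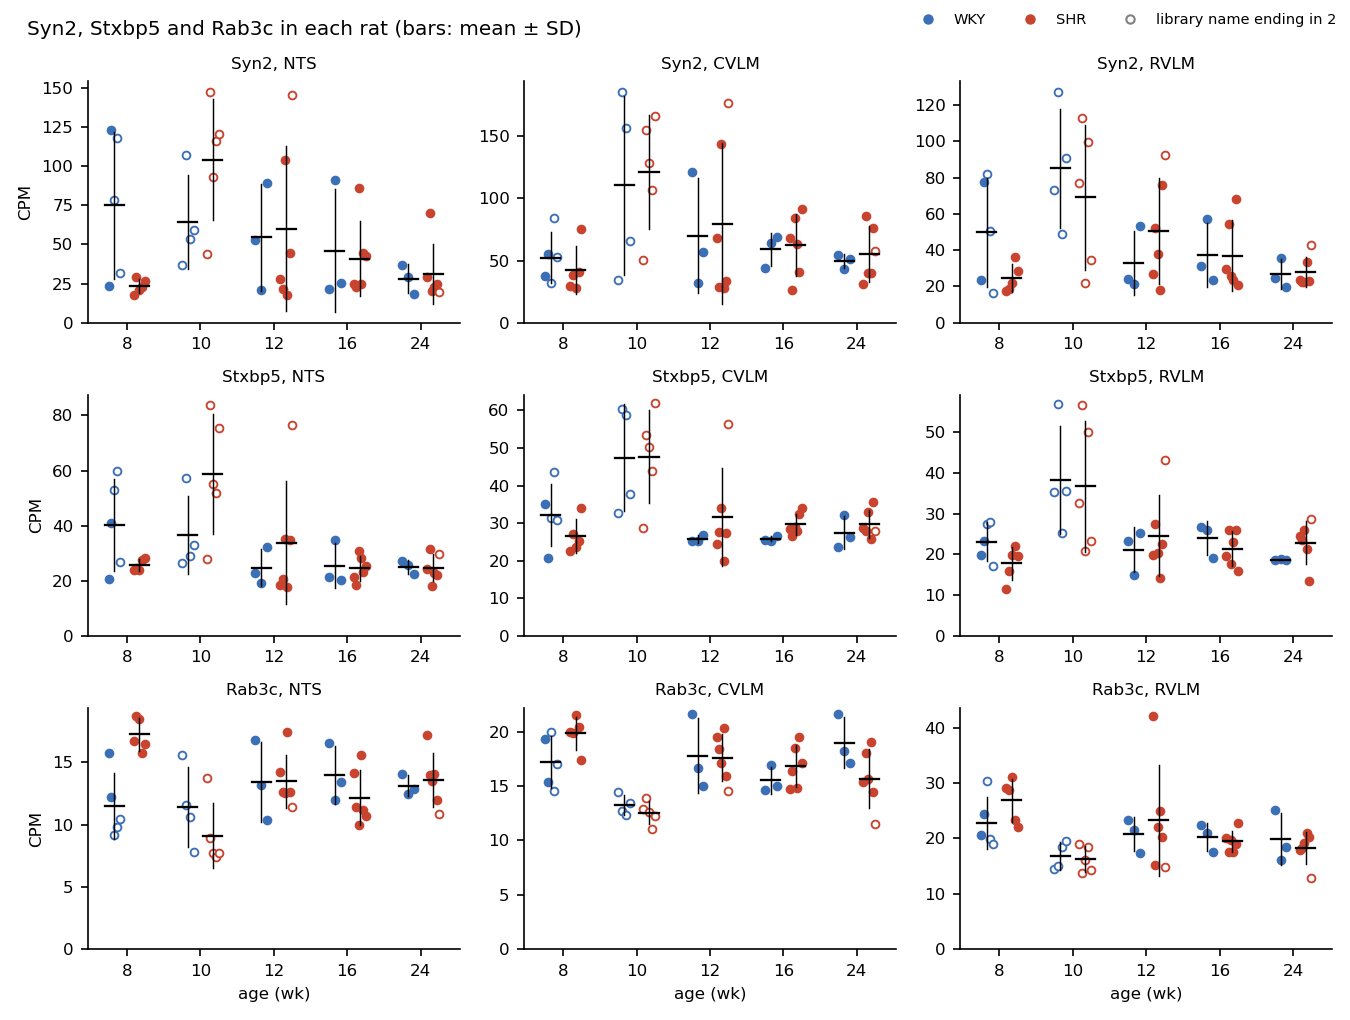
Each point is 1 rat (CPM, axis from 0) by age in weeks, with WKY rats in blue, SHRs in red, bars for the mean ± SD, and open symbols for libraries whose names end in 2. In SHRs all symbols at 8 wk are filled and all at 10 wk open, and the 1 open SHR at 12 wk is the highest for Stxbp5 in each region.

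Several of the same members differed by name number when it was fitted beside strain and age. In NTS, CVLM and RVLM 25.6%, 21.6% and 16.4% of all genes were called for it, and 5, 6 and 4 members. The term rests on the groups that hold both numbers, namely WKY rats at 8 wk and SHRs at 12 and 24 wk. Of these, 3, 1 and 1 rats had libraries named 2, and what the number stands for is not known. Cadps2 was higher in libraries named 2 in the NTS, CVLM and RVLM (0.60 ± 0.20, 0.60 ± 0.18 and 0.67 ± 0.22) and Rab3a lower (-0.32 ± 0.09, -0.37 ± 0.07 and -0.37 ± 0.08). Snap25 and Stxbp5 were higher in NTS and CVLM, and Cplx1 was lower in CVLM and RVLM. At 12, 16 and 24 wk against 8 wk, 0 members were called in SHRs, and in WKY rats 1 was called in the CVLM (Rab3a at 24 wk, 0.38 ± 0.11) and 1 in the RVLM (Rph3a at 16 wk, 1.17 ± 0.26). The WKY rats at 8 wk that serve as reference include the 3 libraries named 2, and without them neither was called. The shares of all genes called at these ages were 0.00725%, 1.36% and 0.232% in the NTS of SHRs, 0.0746%, 0.283% and 0.649% in the CVLM and 0.0149%, 0.0746% and 0.358% in the RVLM. In WKY rats they were 0%, 0% and 0.464% in the NTS, 4.55%, 1.98% and 13.7% in the CVLM and 0.00746%, 0.209% and 0.179% in the RVLM.

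Some readings carry a limit of their own. Syn1, Syn2, Syn3, Cadps2, Doc2a and Rab3a span or overlap other genes of the tables (Timp1 and Araf, Timp4, Timp3 and Fbxo7, Rnf148, Ino80e and Mpv17l2), and with strandedness not given, reads of overlapping transcripts may be shared. Each rat is 1 animal, so the spread is between animals.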

How the data were processed

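RNA of 46 female rats, from tissue punches of 3 regions each, was sequenced as paired ends. The authors aligned the reads to the rat genome build rn6 with STAR within RSEM and deposited expected counts per gene, 1 table per region. Their methods also name a batch correction of counts (ComBat_seq); whether the tables hold corrected values is not given in the sources used here. Of the values 5.02% (NTS), 4.95% (CVLM) and 4.88% (RVLM) were not whole, and counts were rounded. Strandedness is not given in the sources used here. Rats are separate animals, grouped by strain and age. The 2 CVLM libraries with conflicting ages were placed at 8 wk by title.

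Genes were kept with an rlog of at least 3.5, as the study's methods do, and fitted with edgeR 4.0.16 (R 4.3.3; TMM factors, robust quasi-likelihood) with 10 groups per region, and over the 3 regions jointly with rat as a block. Adjusted p-values are Benjamini-Hochberg over all genes tested. Alternatives used DESeq2 1.42.0, limma 3.58.1, other factors, filters and covariates, and left out each rat. Correlations used SciPy 1.17.1. The fits were tested on simulated data. Totals of 5904570 to 17889406 counts per library set the precision. No 2 libraries of a group agreed within sampling noise (lowest chi-square per gene 4.96 over 270 pairs). Values are given for the members that the study's text names, those called in a strain comparison, and the 3 highest and 3 lowest in each pair of regions. The members and lists were chosen with earlier results of these data known, and the alternatives on the name number, the conflicting ages and the marker scores for the age and single-age results were added after seeing the data.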

Additional observations from a re-analysis of the deposited data

Results flagged for a closer look

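In 5 of the 27 groups examined, each of 1 gene in 1 region, strain and age, 1 rat stood apart from the rest by Dixon's test. Chance gives about 1 in 20 for independent groups, but these share animals, so the count was not tested against chance. All 5 values came from rat 1 of the WKY rats or rat 1 of the SHRs at 8 wk. Among WKY rats at 8 wk, rat 1 was highest for Syn3 in the RVLM (6.06 CPM, next 3.60), for Erc1 in the RVLM (15.4 CPM, next 11.4) and for Cplx2 in the CVLM (291.7 CPM, next 174.3). Among SHRs at 8 wk, rat 1 was lowest in the RVLM for Rims2 (21.7 CPM, next 29.4) and for Rph3a (4.48 CPM, next 6.62). Each of these rats lay toward the other strain. Their libraries have names ending in 1. The low values in the RVLM library of WKY rat 3 at 8 wk are given with the strain results.

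The strain effect differed between regions, by the edgeR test of the difference itself, for Syt2 between NTS and RVLM (0.35, adjusted p = 0.0423) and between NTS and CVLM (0.41, adjusted p = 0.0379). It also differed between NTS and RVLM for Syt4 (-0.26, adjusted p = 0.00934) and for Stx1a (-0.57, adjusted p = 0.0183). Over the 5 ages Syt2 was higher in SHRs at 5 ages in the NTS and lower at 5 ages in the CVLM. Within no region was Syt2 itself called for strain. As given in the other sections, these calls did not all hold without the rat block or without the rats of some replicate numbers.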

How the results depend on the processing

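Counts below are members called, the reported count first. Differences between regions stayed within 1.5 times under every alternative run. With DESeq2 the strain count went from 3 to 5 in the NTS at 10 wk and from 0 to 1 in the NTS at 24 wk and the RVLM at 12 wk, and the test of 1 age against the others from 0 to 2 (NTS), 1 (CVLM) and 1 (RVLM). Against 8 wk in WKY rats it gave 1 at 10 wk in the RVLM, and over the later ages 1 (NTS, from 0), 5 (CVLM, from 1) and 5 (RVLM, from 1). Relative log expression factors gave 2 in the CVLM at the later ages. Fitting each age alone left 0 in the NTS at 8 and 10 wk, the CVLM at 8 wk and the RVLM at 8 and 24 wk, and gave 1 in the CVLM at 10 and 16 wk. With limma voom the difference in strain effect between NTS and RVLM at single ages had 3 calls, from 0.

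With the name number as a term the strain counts were 0 in the NTS and CVLM at 8 wk, 2 in the RVLM at 8 wk (from 6) and 1 in the CVLM at 16 and 24 wk. The step from 8 to 10 wk in SHRs went from 11, 10 and 8 to 0 in each region, and the later ages in WKY rats to 0 in the CVLM and RVLM. Without the libraries named 2 outside 10 wk, the strain counts were 0 in all regions at 8 wk, 9 (10 wk) and 2 (24 wk) in the NTS, and 1 each in the CVLM (16 wk) and RVLM (12 wk). The averaged counts were then 8 in the NTS (from 5) and 3 in the RVLM (from 6), those of WKY rats at 10 wk 6, 2 and 1 in NTS, CVLM and RVLM, and at later ages 0 in CVLM and RVLM. Without the 2 libraries of conflicting age, the CVLM counts were 1 for strain at 8 wk, and at later ages 0 in WKY rats and 1 in SHRs. With marker scores as covariates the RVLM counts were 1 for strain at 12 wk, 4 in WKY rats at 10 wk, and 4 in WKY rats and 2 in SHRs at later ages, and 0 in the CVLM of WKY rats at later ages. Without the rlog filter 1 was left for strain at 8 wk in each of NTS and CVLM, 0 in the RVLM at 24 wk, and 0 in WKY rats at later ages in CVLM and RVLM. The cause of these shifts was not tested.

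Rats share replicate numbers between the strains, and 32 of 54 same-numbered pairs correlated above 0.1 (range -0.33 to 0.55). As not every pair did and no label gives the numbers a meaning, the fit without the block was kept, and whether the numbers mark a shared source is not settled. Correlations of pairs with different numbers are not given, so the count of pairs has no baseline. The numbers are those of the sample titles. At 8 wk they differ from the numbers in the animal names for WKY rats and not for SHRs, so pairs at that age join animals of different numbers. With the replicate block the strain counts were 4 (8 wk) and 1 (24 wk) in the NTS, 3 (8 wk) and 0 (24 wk) in the RVLM, and 2 in the averaged RVLM comparison (from 6). Without the rat block, differences in strain effect fell from 3 to 1 (NTS and RVLM) and from 1 to 0 (NTS and CVLM).

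Leaving out 1 rat at a time, the strain counts ranged in the NTS from 0 to 6 at 8 wk, 0 to 9 at 10 wk, 0 to 1 at 12 wk and 0 to 2 at 24 wk. In the CVLM they ranged from 0 to 4 at 8 wk and 0 to 1 at 24 wk, and in the RVLM from 3 to 11 at 8 wk and 0 to 1 at 12 wk, with 0 throughout at 24 wk. The averaged counts ranged from 4 to 6, 3 to 6 and 3 to 7, and those of 1 age against the others from 0 to 8, 0 to 2 and 0 to 2, in NTS, CVLM and RVLM. The 10 wk step ranged from 7 to 14, 8 to 11 and 5 to 8 in SHRs and 0 to 4, 0 to 0 and 0 to 1 in WKY rats, and the later ages from 0 to 3, 0 to 8 and 0 to 9 in WKY rats and 0 to 1 in the CVLM of SHRs. Leaving out 1 replicate number, the differences in strain effect between NTS and RVLM ranged from 0 to 7 (mean over ages) and 0 to 13 (single ages), and those between NTS and CVLM from 0 to 1. These joint fits kept the dispersion trend of all rats.

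Ncs1 in the RVLM at 8 wk, at 0.01, turned to -0.00519 with relative log expression factors, -0.00325 with the replicate block, -0.00528 with DESeq2 and -0.13 without the libraries named 2. Leaving out 1 rat at a time gave a range of -0.0756 to 0.11, with the sign turned without WKY rat 4 (-0.0153) or 5 and without SHR 4 (-0.0446) or 5 (-0.0730). With 3 to 6 rats per group at the later ages, small differences may not be detectable.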
